A study of Drosophila melanogaster with 2 samples.

Results

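The heat shock genes Hsp70 and the small heat shock genes were examined in a map of GAGA factor binding in Kc cells, a line of Drosophila melanogaster established from embryos. The map came from chromatin immunoprecipitation followed by sequencing (ChIP-seq), which recovers DNA crosslinked to a protein and lists the places where it is enriched as peaks. The set comprised 10 genes at 3 loci. Peaks were assigned to a locus when their midpoint lay in a fixed interval of the BDGP5 genome assembly. By this rule 6 of the 3842 peaks in the list belonged to the heat shock loci. The study held 1 ChIP sample, made with the antibody KW3-Trl-D2, and 1 input sample of the same cells, chromatin taken without antibody. Neither sample was treated, and no heat shock is named for them, so the loci were mapped in cells given no stated stress. There was 1 peak list and no replicate list, so no difference could be tested, and the values below are descriptions of that list.

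Heat shock proteins are chaperones that bind unfolded proteins. Their genes are transcribed at a low rate in unstressed cells and strongly after heat, when heat shock factor binds their promoters. In Drosophila, Hsp70 and small heat shock promoters are well-studied targets of the GAGA factor, encoded by Trl, which binds GA-rich DNA and helps to keep promoters free of nucleosomes. On several of these promoters RNA polymerase II is known to start and then pause before heat shock. Hsp70Aa, Hsp70Ab, Hsp70Ba, Hsp70Bb, Hsp70Bbb and Hsp70Bc encode nearly identical copies of the main inducible chaperone. Hsp22, Hsp23, Hsp26 and Hsp27 encode small chaperones that hold unfolded proteins and keep them from aggregating.

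The loci differed in how many peaks they held. The small heat shock interval, on 3L from 9355000 to 9390000, held 4 peaks. The Hsp70A interval, on 3R from 7770000 to 7795000, held 2. The Hsp70B interval, on 3R from 8285000 to 8340000, held 0. The highest score was 3100 in the small heat shock interval and 890.82 in the Hsp70A interval. The score is the value that the peak caller gave each peak, as the authors deposited it. The file names no scale for it, so it is used here to rank peaks within the list. It gives no order among the 267 peaks that share the value of exactly 3100. Whether the 28 peaks with values above 3100, at most 3233.06, stand above these was not determined. All 6 Hsp70 genes and all 4 small heat shock genes were found in the RefSeq gene table, which is built on a later assembly and served for names and gene order. Which gene each peak lay on was therefore not determined. The order of genes, however, shows what else lies between the members. Hsp70Aa and Hsp70Ab are direct neighbours. Between Hsp70Ba and the group of Hsp70Bbb, Hsp70Bb and Hsp70Bc lies the noncoding alphagamma-element RNA gene, and a pseudogene separates each neighbouring pair within that group. The small heat shock genes follow each other as Hsp22, Hsp26, Hsp23 and Hsp27, with 3 other genes among them. One of these is Hsp67Ba, a further gene of the small heat shock family.

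**Figure D1:**
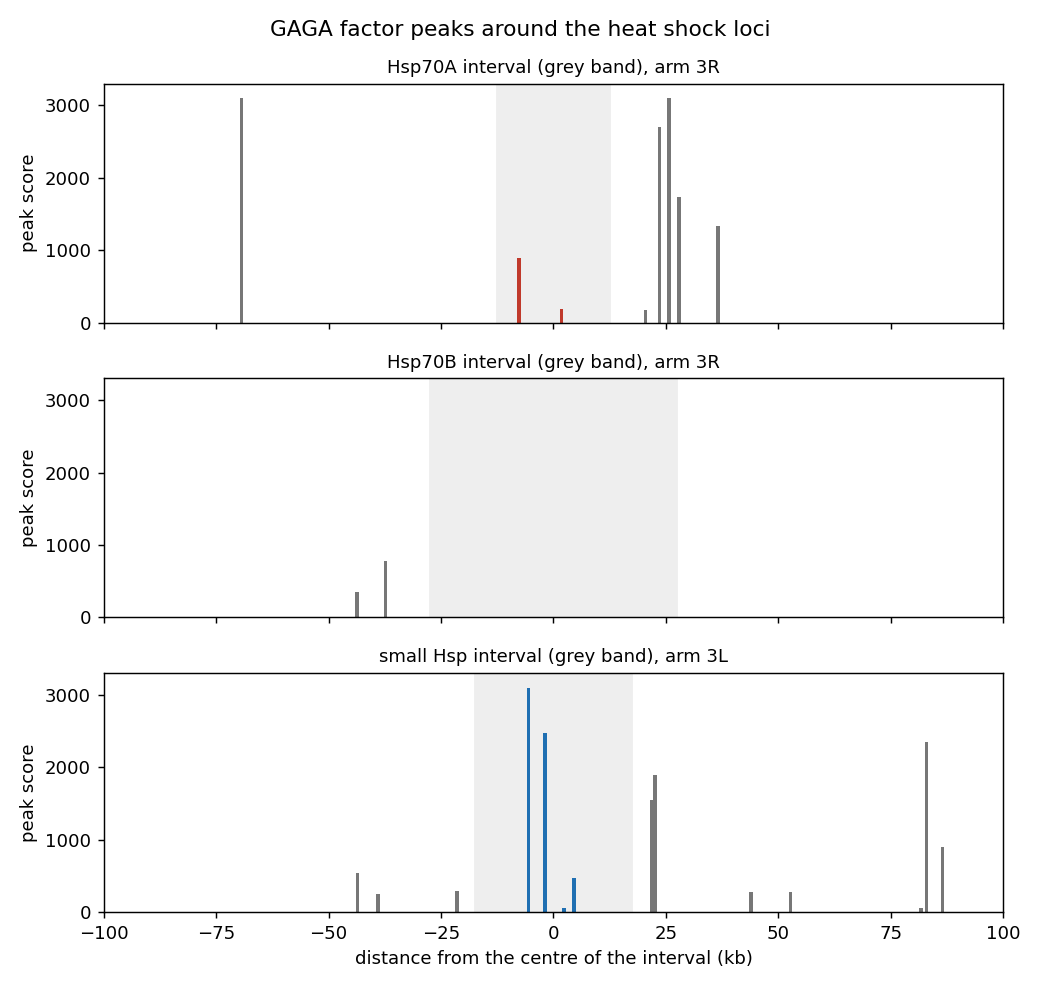
GAGA factor peaks within 100 kb of the centre of each heat shock interval. Each bar is 1 peak, its height is the deposited score, and all bars have the same drawn width whatever the width of the peak. The grey band is the interval. Coloured bars are the 4 peaks of the small heat shock interval and the 2 of the Hsp70A interval, and the Hsp70B band is empty.

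The small heat shock interval held a pair of high-scoring peaks followed by a pair of lower score. In order along 3L, the first peak lay from 9366615 to 9367298 and had the score of 3100. The second, from 9370155 to 9371110, scored 2475.79. The third, from 9374598 to 9375088, scored 54.29, close to the lowest score of the arm, 50.75. The fourth, from 9376598 to 9377444, scored 466.62, near the median of 440.16 for the 745 peaks of 3L. The scores thus fell on both sides of the arm's median within a single interval. The first peak shared its score with 60 other peaks of the arm, since 61 peaks of 3L, 8.19%, had the value of exactly 3100. Another 10 peaks of 3L had values above 3100, but whether these outrank the shared value was not determined. Peaks scoring as high as the second or higher made up 13.2% of the arm. For the third this share was 97.7%, and for the fourth it was 48.7%.

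These 4 peaks were packed into the middle of the interval. They spanned 10.8 kb, beginning 11.6 kb after the start of the interval and ending 12.6 kb before its end. The gaps between them measured 2.86 kb, 3.49 kb and 1.51 kb, while the median gap between neighbouring peaks of 3L was 8.38 kb. Gaps as short as these or shorter were common on the arm, at 38%, 39.9% and 30.6% of its 744 gaps. On the outside, 15.2 kb without a peak preceded the group and 16.6 kb followed it. The nearest peak before the interval lay from 9350608 to 9351401 and scored 290.13. The nearest after it lay from 9394010 to 9394640 and scored 1543.63, and was followed by a peak from 9394734 to 9395491 with a score of 1898.67. Both peaks after the interval thus scored above the pair of lower score, and the score of the peak before it lay between the scores of that pair.

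Against windows of 35 kb tiled along 3L, the small heat shock interval was among the fuller ones. Of the 662 windows, 53 held 4 peaks or more, which is 8.01%, and 332 held 1 peak or more, which is 50.2%. The share with as many peaks was 4.68% when peaks under 500 bp apart were merged, 5.05% when interval and windows were widened by 5 kb on both sides, and 16% among windows with a peak. The windows held 1.12 ± 1.65 peaks (mean ± SD over windows) and at most 10. A highest score of 3100 or more occurred in 55 windows, which is 8.31%, or 16.6% of those with a peak. A pair of peaks with scores at least as high as the first and second of the interval occurred in 18 windows, which is 2.72%. Windows that combined a peak of 3100 or more with one under 100 numbered 16, which is 2.42%. These last pairs of values were chosen after the scores of the locus had been seen. Peaks covered 2978 bp of the interval, or 8.51% of its length, while 1.97% of the arm was covered. At least this much was covered in 4.83% of the windows. Among the 22 windows with exactly 4 peaks, the median highest score was 2475, and 9 of them reached 3100. Counted with the interval's own 4 peaks, the wider stretch was full too. Within 100 kb of the centre there were 14 peaks, 10 of them outside the interval. Windows of 200 kb on 3L held a median of 6, and 7.83% of these windows held at least 14. No share was computed for the 10 outside peaks alone. The windows include those over the locus itself, and tiling ended at the last peak of the arm.

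**Figure D2:**
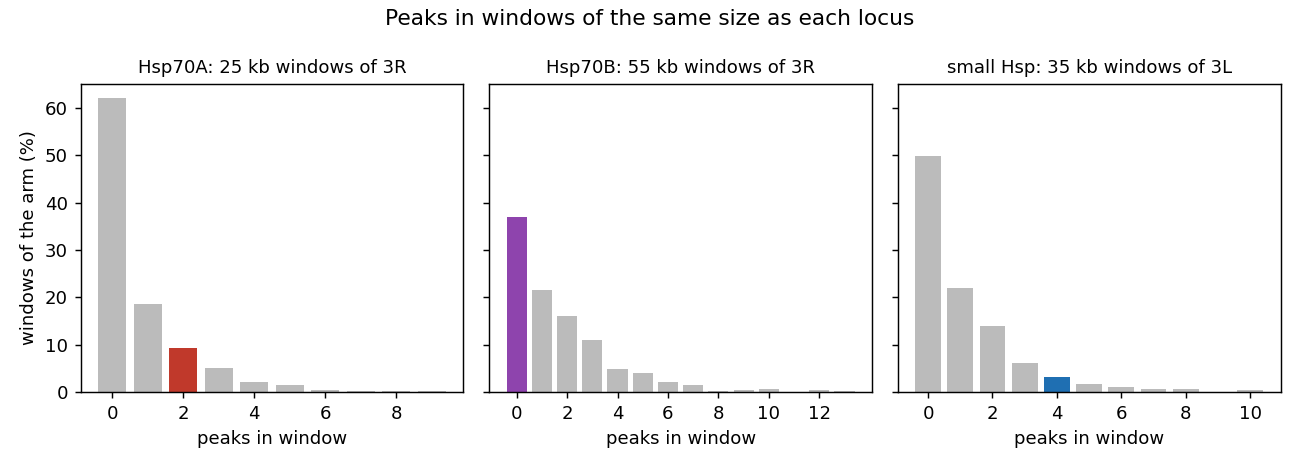
Number of peaks in windows of the same size as each heat shock interval, tiled along the same arm. The horizontal axis is the number of peaks in a window, the vertical axis is the percentage of windows, and the coloured bar marks the number found at the locus. The small heat shock interval lies in the tail, with 4 peaks or more in 8.01% of windows, whereas windows without a peak, as at Hsp70B, make up the tallest bar.

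The Hsp70A interval held a peak of middle rank and a very narrow one of lower score. The first peak lay on 3R from 7774583 to 7775039, was 457 bp wide and scored 890.82. Peaks with this score or a higher one made up 32.8% of the 861 peaks of 3R, whose median score was 435.31. The second lay from 7784206 to 7784366, was 161 bp wide and scored 191.35. Peaks with at least that score made up 66.1% of the arm. A gap of 9.17 kb separated them, close to the arm's median gap of 8.53 kb. They stood 7.69 kb before and 1.79 kb after the centre of the interval.

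The narrow peak of the Hsp70A interval stood out by its width. Only 6 peaks of the whole list, this one included, were 161 bp wide or narrower, and the list's narrowest measured 148 bp. The other 5 scored between 69.97 and 108.88, all below the 191.35 of the Hsp70A peak. Scores and widths rise together in this list, so widths were also compared among peaks scored within 25% of it. Of the 422 other peaks in that range, none was as narrow. The median of their widths was 441.5 bp, the quartiles were 372 and 520.8 bp, and the narrowest measured 176 bp. The first Hsp70A peak was also on the narrow side, since 15.6% of the 409 peaks scored within 25% of it were as narrow or narrower. The comparison by width was chosen after the width had been seen. Copies as alike as Hsp70Aa and Hsp70Ab can yield reads that map equally well to several places, and reads of this kind are often discarded. How such reads were handled is not given in the sources used here, and their part in the width, score or number of peaks at both Hsp70 loci was not tested.

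**Figure D3:**
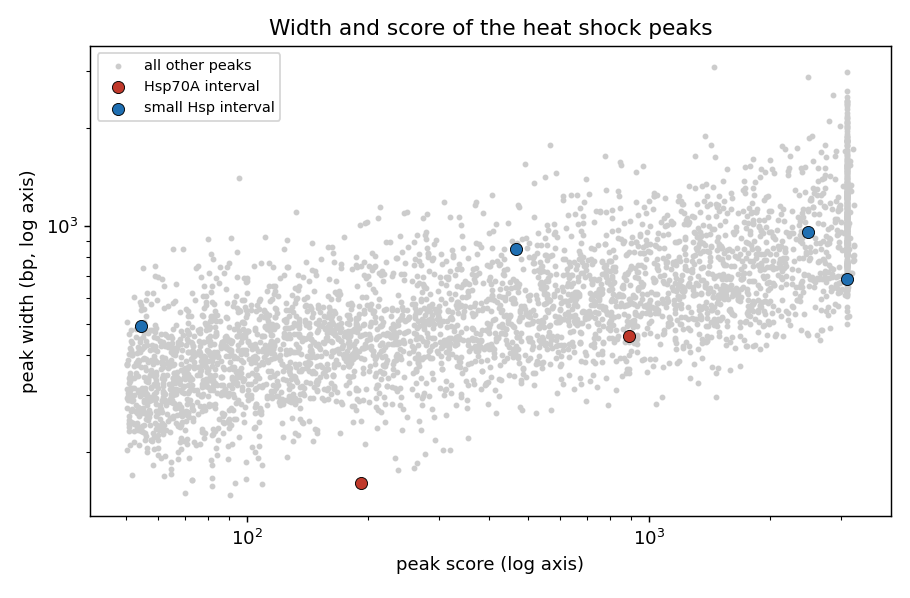
Width against score for every peak of the list, both on log axes. Each grey point is 1 of the other peaks, red points are the 2 peaks of the Hsp70A interval and blue points the 4 of the small heat shock interval. The red point at a score of 191.35 and a width of 161 bp lies below all peaks scored within 25% of it, and the column of points at 3100 is the shared score.

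Widths in the small heat shock interval lay on either side of the usual. The peak with the highest score was 684 bp wide, and 14% of the 487 peaks scored within 25% of it were as narrow or narrower. For the second peak, 956 bp wide, this share was 67.1% of 347 peaks. The peak of lowest score was 491 bp wide, wider than most, since 92.5% of the 375 peaks scored alike were as narrow or narrower and their median was 317 bp. The fourth was 847 bp wide, where 90.5% of 379 peaks scored alike were as narrow or narrower and their median was 528 bp. Both lower-scoring peaks of this interval were therefore broad for their scores of 54.29 and 466.62. The second peak of the Hsp70A interval was narrow for its score.

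Against windows of 25 kb along 3R, the Hsp70A interval was moderately full. Of the 1115 windows, 215 held 2 peaks or more, which is 19.3%, and 424 held 1 or more, which is 38%. Among windows with a peak, 50.7% held as many. The windows held 0.77 ± 1.32 peaks (mean ± SD over windows), with a median of 0. A highest score of at least 890.82 was found in 195 windows, which is 17.5%, or 46% of those with a peak. Among the 105 windows with exactly 2 peaks, 57 reached that score, and their median highest score was 1079. Peaks covered 618 bp, or 2.47% of the interval, near the 1.93% covered on the arm, and 26.1% of windows were covered at least as far. The Hsp70A interval was thus occupied, but neither its number of peaks nor its scores were rare on the arm.

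Peaks of higher score lay just outside the Hsp70A interval. Starting 7.69 kb beyond its end, 5 peaks occupied the 16.7 kb from 7802688 to 7819394. In order, these scored 169.21, 2705.01, 3100, 1738.55 and 1332.89, so 4 of the 5 exceeded both peaks of the interval. On the other side the nearest peak lay 56.3 kb from the interval, from 7712624 to 7713707, and also scored 3100. Within 100 kb of the centre there were 8 peaks, where 200 kb windows of 3R held a median of 5, and 27.3% of these windows held at least 8. In the 490 kb between the Hsp70A and Hsp70B intervals there were 17 peaks, or 34.7 per Mb, near the 30.9 per Mb of the arm.

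No peak was listed in the Hsp70B interval, to which the rule assigned Hsp70Ba, Hsp70Bb, Hsp70Bbb and Hsp70Bc. An empty stretch of this size was common. Of the 507 windows of 55 kb along 3R, 187 held 0 peaks, which is 36.9%, and the median window held 1. The interval lay inside a longer gap from 8275780 to 8421513, a length of 146 kb. This gap was the 44th longest of the 860 on the arm, so that 5.12% of gaps were as long or longer. Gaps of that length or more together made up 32.8% of the arm. The nearest peak before the interval, from 8274485 to 8275779, ended 9.22 kb away, was 1295 bp wide and scored 781.82. The nearest after it, from 8421514 to 8421886, began 81.5 kb away and scored 151.41. Within 100 kb of the centre of the interval there were 2 peaks, both before the interval, and 15.1% of the 139 windows of 200 kb held as few.

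**Figure D4:**
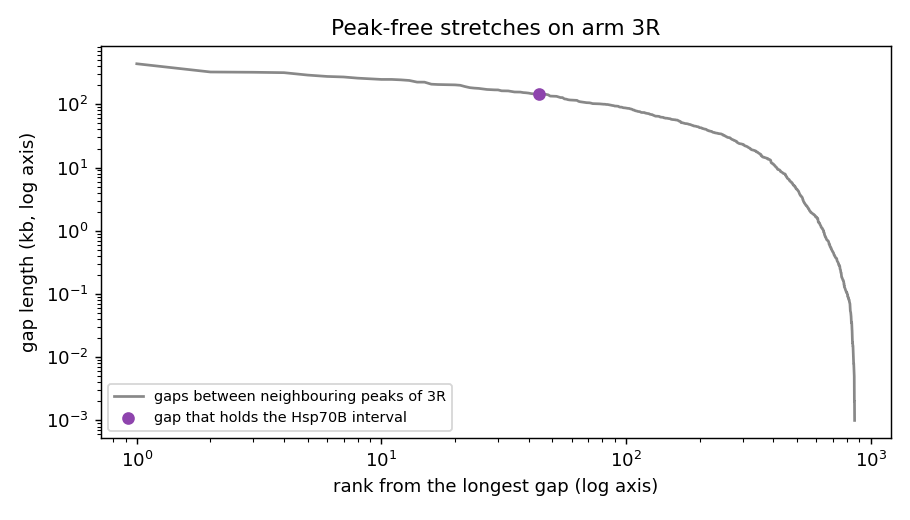
Lengths of the gaps between neighbouring peaks of arm 3R, ordered from the longest, with rank and length in kb both on log axes. The line joins all 860 gaps. The purple point is the gap of 146 kb that holds the Hsp70B interval, which ranks 44th.

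The absence of a listed peak at Hsp70B does not show that the GAGA factor was absent there. The number of reads behind the list is unknown, so no limit can be set on a signal that was missed. Hsp70 genes were assigned to both 3R intervals, with 2 peaks listed in one and 0 in the other. Whether reads that map equally well to several copies had a part in this was not tested. The list cannot tell whether the peaks of the Hsp70A interval lay in sequence shared among the copies or beside it, since gene positions in BDGP5 were not used here.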

How the data were processed

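Chromatin of Kc cells was crosslinked in 1.8% formaldehyde for 15 minutes and sonicated for 15 minutes, per the labels' protocols, whose growth text describes flies rather than cultured cells. Reads were aligned with Bowtie to BDGP5, per the submitters' processing notes, and MACS called the peaks, per the file headers. The sources used here do not give versions, settings, the handling of duplicate or multiply mapping reads, pooling of libraries or depth. Each peak has a start, an end and a score, deposited by the authors and used as it stands. A list of the ChIP sample was analysed, and input values were not analysed here. The series design names 2 replicates for ChIP-seq.

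Starts were made 1-based. Each locus was set beside whole windows of its own size, tiled from the first base of the arm to its last peak. Peaks scored within 25% were called scored alike. Window counting was tested on simulated data. The text names the 10 genes, every peak inside the intervals and the nearest peak on each side; the peaks further out were added after their values were seen. The genes, intervals and comparisons were chosen with earlier results of these data known. Alternatives changed the assignment of peaks, the score minimum, merging, the interval and the windows. Analyses used Python 3.11.15, NumPy 2.4.6, SciPy 1.17.1, pandas 2.3.3 and Matplotlib 3.10.9.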

Additional observations from a re-analysis of the deposited data

How the results depend on the processing

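Of 68 recomputed values, 54 stayed within their limit (1.5-fold for a number of peaks, the exact 95% binomial interval for a share or covered length, equality for a score) and 14 moved. For a share, windows were taken as independent trials, although the alternatives reuse the same peaks. The limit for a share thus marks the size of a change and is no test. For a covered length, single bases were taken as independent trials, although neighbouring bases come from the same peak. The length in a widened interval was also set against the unwidened size. A covered length that moved is therefore no measure of stability. Peaks numbered 2 at Hsp70A and 0 at Hsp70B in all 4 alternatives, and 3 to 6 in the small heat shock interval. With peaks scored 100 or more, the share of windows with as many peaks was 16% for Hsp70A and 10.9% for the small heat shock genes, whose covered length was 2487 bp, and 43.2% of windows were empty as at Hsp70B. With peaks under 500 bp apart merged, the shares with as many peaks were 14.3% and 4.68%. With intervals and windows widened by 5 kb on both sides, they were 27.4% and 5.05%, the covered length of the small heat shock interval was 4403 bp, and the share with as high a score was 22.2% for Hsp70A. Among windows with 1 or more peaks, the shares with as many peaks were 50.7% and 16%, and those with as high a score 46% and 16.6%; the cause is the construction, since empty windows leave the total. Windows started every 1 kb, windows of the 5 major arms and assignment by 1 bp of overlap moved no value past its limit. No highest score exists at Hsp70B. Searches for GAGA elements in promoters need sequence and were not run. No paired analysis was possible because the result comes from no test, and with 1 peak list none could be left out.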
